A study of Drosophila melanogaster with 4 samples.

Results

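Dense clusters of Eip78C peaks are stretches of the Drosophila melanogaster genome in which binding regions lie a short distance apart, one after another. They were chosen from the peak positions themselves. Overlapping peaks of the optimal set, the authors' joint list of reproducible peaks, were merged into regions, each region was placed at the summit of its strongest peak, and regions on the same chromosome arm were chained when neighbouring summits lay 5 kb or less apart. Chains of 5 or more regions were kept. They hold 2076 of the 7880 regions of the optimal set, or 26.3%, in 305 clusters. Since distance between summits chose the members, their density is given as a description and was not tested.

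The peaks came from chromatin immunoprecipitation and sequencing (ChIP-seq) with an antibody against green fluorescent protein (GFP) in whole animals, males and females pooled, at the white prepupa stage, when the larva has just stopped moving and formed its puparium. All animals were of 1 transgenic line that stably carried Eip78C with GFP fused to its C-terminus, and 4 biological replicates form the only group; the labels give no age, no driver and no insertion site for the tagged copy. No untagged or input sample was analysed here, and the peak lists hold no read counts, so the depth behind each list is unknown. Whole animals mix all tissues, so peaks present together in 1 cell type and peaks of different cell types that lie side by side cannot be told apart.

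Eip78C belongs to the Rev-erb branch of the nuclear receptors, and its gene is among those that the moulting hormone ecdysone switches on at the onset of metamorphosis. Nuclear receptors of this type bind short DNA elements built on the letters AGGTCA, and Rev-erb proteins of mammals act mainly as repressors. Genes that control development often carry many separate regulatory elements spread over their introns and the intergenic DNA around them, and the binding regions of a factor can then follow each other over many kilobases.

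The DNA at the strongest summits of several clusters is shown because these are the loci that the results below turn on. Each line gives 120 bases centred on the summit, read from the plus strand of the RefSeq Release 6 genome (dm6), and all lie outside annotated untranslated regions. Capitals mark matches, on either strand, to any of 17 motifs that were searched.
emc and hng3 cluster, chr3L:762458-762577: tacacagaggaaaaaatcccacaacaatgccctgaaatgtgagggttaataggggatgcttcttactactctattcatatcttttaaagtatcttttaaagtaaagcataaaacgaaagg
heca cluster, chr3R:30259096-30259215: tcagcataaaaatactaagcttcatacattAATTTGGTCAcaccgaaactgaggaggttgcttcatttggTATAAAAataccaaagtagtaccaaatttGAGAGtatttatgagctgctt
aop and CG31668 cluster, chr2L:2202352-2202471: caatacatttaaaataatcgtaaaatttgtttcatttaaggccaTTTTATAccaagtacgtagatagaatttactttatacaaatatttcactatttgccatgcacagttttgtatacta
Mnt cluster, chrX:3682270-3682389: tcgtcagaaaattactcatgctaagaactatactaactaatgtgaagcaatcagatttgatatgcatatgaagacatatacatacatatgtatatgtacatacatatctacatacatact
upstream of tara cluster, chr3R:16222431-16222550: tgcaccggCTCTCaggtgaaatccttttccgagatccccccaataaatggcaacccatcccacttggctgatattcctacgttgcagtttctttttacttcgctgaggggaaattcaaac
vri cluster, chr2L:5293349-5293468: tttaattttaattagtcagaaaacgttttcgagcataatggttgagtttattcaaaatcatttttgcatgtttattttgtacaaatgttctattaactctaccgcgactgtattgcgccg
ush cluster, chr2L:480993-481112: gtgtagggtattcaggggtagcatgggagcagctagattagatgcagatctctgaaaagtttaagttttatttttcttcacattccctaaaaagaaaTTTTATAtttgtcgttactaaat
Eip78C cluster, chr3L:21253839-21253958: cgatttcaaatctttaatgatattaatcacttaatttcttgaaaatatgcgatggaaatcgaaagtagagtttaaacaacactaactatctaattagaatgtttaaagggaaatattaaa
The window at heca held a half-site with an A/T-rich flank, a GAGAG and a TATAAAA. The windows of the clusters at aop and CG31668 and at ush each held a TATAAAA on the minus strand, and the window upstream of tara held a GAGAG on the minus strand. The windows at emc and hng3, Mnt, vri and Eip78C held none of the motifs. GC content was 24.2% in the Eip78C window, 25% at aop and CG31668, 28.3% at Mnt, 30.8% at vri, 33.3% at ush and heca and 34.2% at emc and hng3. The window upstream of tara stood apart with 47.5%.

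Most clusters were small and a few were very large. Of the 305 clusters, 124 held exactly 5 regions, 227 held 5 to 7, and 31 held 10 or more, up to 35. The median cluster spanned 10.4 kb from first to last summit, the shortest 3.36 kb and the longest 69.3 kb. Together the clusters spanned 3.57 Mb, which is 2.66% of the 134 Mb of the chromosome arms. Neighbouring summits within clusters were a median of 1715 bp apart, with the middle 50% between 990.5 and 2860.5 bp, whereas the median over all neighbouring regions was 4927 bp. Just inside the threshold, the 620 regions of chains of 5 had a median signal of 210 and 29.2% of them lay within 1 kb of a transcription start site (TSS). Just outside it, the 732 regions of chains of 4 had a median signal of 206 and 28.8% lay within 1 kb of a TSS. Introns held 44.2% of the regions in chains of 5 and 49.7% of those in chains of 4, intergenic DNA held 24.8% and 20.8%, and 14.8% and 21.6% lay over 10 kb from the nearest TSS.

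**Figure D1:**
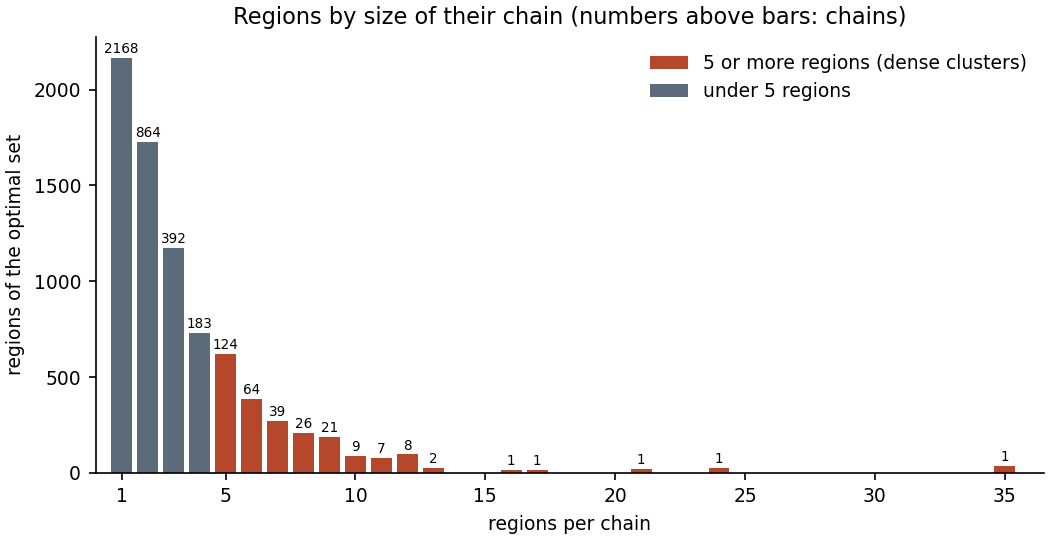
Number of optimal-set regions (vertical axis) by the number of regions in their chain (horizontal axis), with the number of chains above each bar. Red bars are the chains of 5 or more regions that form the dense clusters, and grey bars the smaller chains, of which 2168 are single regions.

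The clusters were spread over the large arms. Arm 3L held 75 clusters and 19.4 member regions per Mb, and 31.0% of its regions were members. Arm X held 60 clusters and 27.2% of its regions, 3R held 74 clusters and 26.1%, 2L held 53 clusters and 24.9%, and 2R held 43 clusters and 21.5%. None of the 24 regions on arm 4 was a member. Another cluster lay within 10 kb for 34 of the clusters.

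Regions in clusters lay at promoters less often, and in introns and intergenic DNA more often, than the other regions of the optimal set. Summits within 1 kb of the TSS of a protein-coding gene made up 24.7% of members (513 regions; 95% interval 22.9% to 26.6%) and 40.9% of the other 5804 regions (39.7% to 42.2%). Among all regions this share was 36.6%. In introns beyond 1 kb of any TSS lay 46.4% of members and 38.3% of other regions, and in intergenic DNA 27.7% and 19.7%. Exons beyond promoters held 1.20% of members and 1.02% of other regions. The median distance to the nearest TSS was 3090 bp for members and 1761 bp for other regions. The larger clusters were further from promoters still, since 15.4% of the 402 regions in clusters of 10 or more lay within 1 kb of a TSS. Intervals are exact binomial intervals, cover counting error only and treat regions as separate, although regions of 1 cluster share a locus.

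The same difference in position was seen when clusters were built anew from each replicate's own list, using as many of its strongest peaks (8282) as the optimal set holds. Within 1 kb of a TSS lay 25.7%, 21.2%, 24.6% and 27.3% of the cluster regions of replicates 1 to 4, and 47.0%, 39.6%, 45.7% and 45.9% of their other regions. The cluster share was lower in 4 of 4 replicates, and the ranges did not overlap. The means were 24.7% ± 2.56 in clusters and 44.5% ± 3.33 outside (SD, n = 4), and the difference was -19.8 percentage points ± 1.57 (SD, n = 4; p = 0.125, exact two-sided sign-flip permutation test, the smallest p that 4 replicates allow). Introns held 46.6% ± 1.06 of cluster regions and 36.0% ± 2.26 of others (SD, n = 4), higher in 4 of 4 replicates by 10.6 points ± 2.55 (SD, n = 4; exact permutation p = 0.125).

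**Figure D2:**
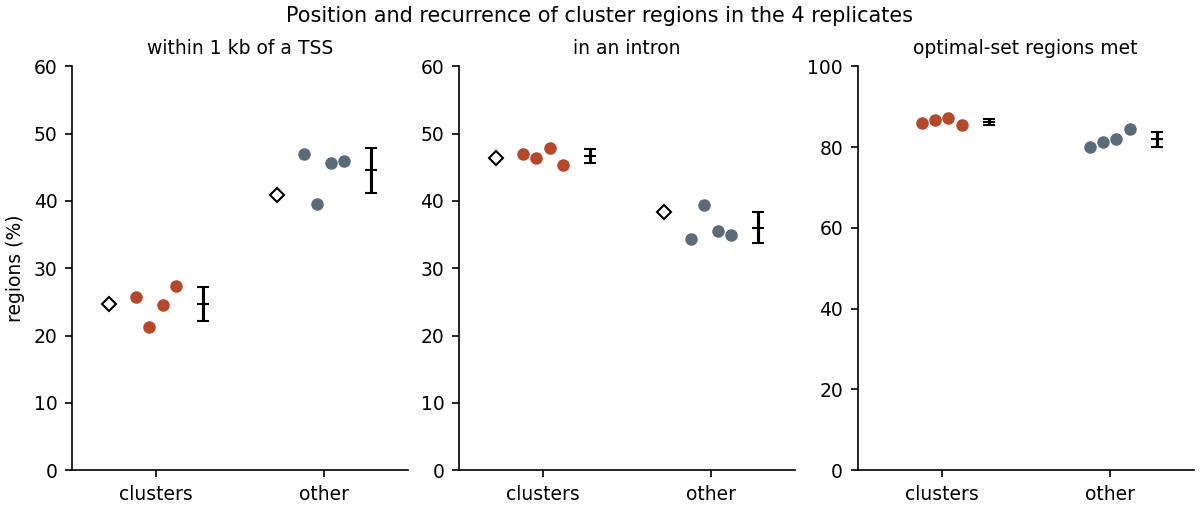
Share of regions (vertical axes, %) within 1 kb of a TSS, in an intron, and, for regions of the optimal set, met by a replicate, for regions in clusters (red) and other regions (grey). Points are replicates 1 to 4 from left to right, bars are the mean ± SD (n = 4), and diamonds are the optimal set; promoter shares of clusters run from 21.2% to 27.3%, below all 4 shares of other regions.

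Many clusters lay inside a single gene, which other genes can overlap, and many held no promoter at all. In 116 of the 305 clusters every summit lay inside 1 protein-coding gene, and in 196 at least 50% of the summits did. In 60 clusters no summit lay inside a protein-coding gene, and 38 were made wholly of intergenic regions. No protein-coding TSS lay in the span of 111 clusters, 110 spans held the TSSs of 1 gene, 84 those of 2 or more genes, and the highest number was 7. The spans were not richer in genes than the rest of the arms, with 10.01 genes per 100 kb having a TSS inside them and 10.4 elsewhere. A promoter region was present in 218 clusters. It was the strongest member in 71 clusters (23.3%), a share close to the 24.7% of all members at promoters.

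The largest cluster surrounded emc, which encodes a helix-loop-helix protein that blocks proneural activators. It held 35 regions over chr3L:724642-793934, where emc lies within the span of hng3, a gene on the other strand. Of the 35 summits, 27 were intergenic, 4 were at promoters and 4 in introns. Signals ran from 106 to 873 with a median of 239, and 25 regions were met by all 4 replicates. The strongest peak lay 7029 bp upstream of hng3 and ranked 622, 243, 440 and 313 in replicates 1 to 4. The map of this cluster shows strong summits on both sides of the genes and weaker ones at emc itself.

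Next in size was the cluster at heca (headcase), a gene needed for adult structures, with 24 regions over chr3R:30255654-30296156. None of its regions was at a promoter, and 9 lay in heca introns and 15 in intergenic DNA. Its signals ran from 102 to 1288 with a median of 344, and its strongest peak ranked 141, 106, 114 and 186 in the replicates. The third, with 21 regions over chr3L:604014-648269, lay around Reg-2 with no summit inside a protein-coding gene, and 19 of its regions were intergenic. Its strongest peak ranked 401, 372, 255 and 447. The fourth held 17 regions over chr2L:2175184-2203143 between CG15382 and CG31668. Of its summits, 4 lay inside aop, also called yan, which encodes an ETS repressor that receptor tyrosine kinase signalling switches off, 3 lay inside COX7AL2, and 10 regions were intergenic. The strongest peak, which had a signal of 2630, was intergenic, 3754 bp downstream of the TSS of CG31668, the nearest, and ranked 16, 23, 19 and 25.

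Mnt, which encodes the basic helix-loop-helix zipper repressor that competes with Myc, carried the largest cluster that lay wholly within a single gene. Its 16 regions over chrX:3672886-3696796 comprised 15 in introns and 1 at a promoter. Signals ran from 114 to 942 with a median of 303, and 13 of the 16 regions were met by all 4 replicates. The clusters of 12 and 13 regions included one of 13 upstream of tara, a gene of the trithorax group, with 12 intergenic regions over chr3R:16205585-16224531. Inside tara itself lay 12 further member summits, all of 1 other cluster. Another cluster of 13, at msn, the kinase upstream of Jun kinase in dorsal and thorax closure, spanned chr3L:2570630-2590677 and had 10 summits inside the gene. A cluster of 12 between Ids and sty, the latter encoding the receptor tyrosine kinase inhibitor Sprouty, held 11 intergenic regions over chr3L:3378113-3399413. A cluster of 12 at CG43658 spanned chrX:17542919-17562794. The clock and ecdysone gene vri, a bZIP repressor, carried a cluster of 12 over chr2L:5287726-5305696, with 10 summits inside the gene and 8 in its introns.

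**Figure D3:**
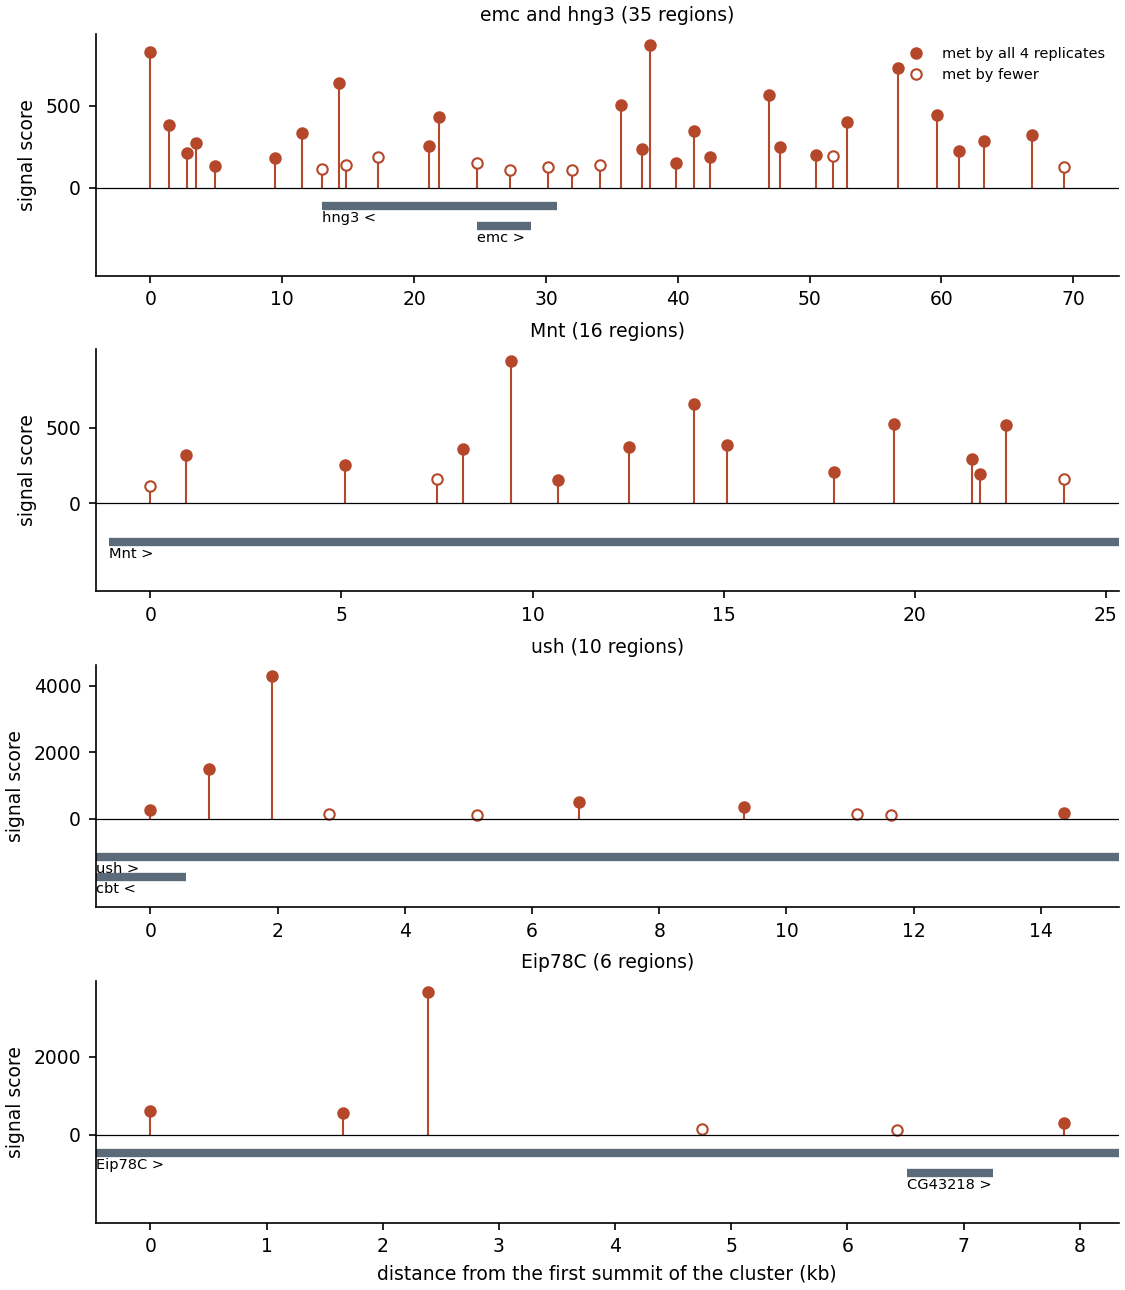
Signal score of each region (vertical axes, the authors' scale) against distance from the first summit of the cluster (horizontal axes, kb) in the clusters at emc and hng3, Mnt, ush and Eip78C. Filled points were met by all 4 replicates and open points by fewer; grey bars are protein-coding genes with > or < for the plus or minus strand, cut at the edge of each panel, and the ush and Eip78C clusters show 1 tall summit (4276 and 3654) among weaker ones.

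The clusters with the strongest peaks were mostly not the largest. The strongest cluster summit, with a signal of 4276, lay in an intron of ush, which encodes the FOG-type cofactor of GATA factors, 1365 bp upstream of cbt, a zinc finger gene nested in ush on the other strand. It ranked 1, 2, 3 and 3 in replicates 1 to 4, and its cluster held 10 regions over chr2L:479135-493499. Of these, a second had a signal of 1489, and the weakest had 114.8. The tagged gene itself carried the cluster with the next strongest peak. In Eip78C, 6 regions lay over chr3L:21251507-21259371, all inside the gene and 5 of them in introns. Their signals in order along the gene were 617, 556, 3654, 133, 105 and 303. The peak of 3654 ranked 4, 8, 5 and 4 in the replicates, and 4 of the 6 regions were met by all of them.

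Among the other clusters led by a very strong peak, that at larp, an RNA-binding protein gene, had 9 regions with 8 at promoters and ranked 6, 7, 8 and 11 in the replicates at its top summit. The cluster at osa, which encodes a subunit of the Brahma chromatin remodelling complex, had 5 intronic regions and its top summit ranked 12, 12, 10 and 14. The cluster at CG4004 on arm X had 8 regions and ranks of 25, 13, 23 and 13. That of 9 regions beside eEF1gamma, a translation elongation factor subunit, had ranks of 19, 32, 18 and 21. That of 6 regions at CG31145 had ranks of 20, 20, 25 and 22. The HmgD and HmgZ cluster, at neighbouring genes for HMG box chromatin proteins, held 9 regions with 5 at promoters, and its top summit ranked 34, 28, 30 and 31. At ph-p, a Polycomb group gene, the cluster of 7 held 5 promoter regions and its top summit ranked 64, 16, 24 and 19. Members of 1 cluster differed in strength, and across all 305 clusters the strongest member had a median of 4.83 times the signal of the weakest, from 1.58 to 37.2 times.

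Members were slightly stronger than other regions on the authors' signal scale, and the gap lay away from promoters. The median signal was 214 for members (middle 50% 140 to 360) and 192 for other regions (133 to 328), a ratio of 1.12. Away from promoters the medians were 219 for members and 181 for other regions, whereas at promoters they were 199 and 211. The strongest 5% of all regions took in 5.73% of the members and 4.74% of the other regions. The ratio of the median replicate signals at these regions was 1.16, 1.12, 1.13 and 1.07 in replicates 1 to 4 (mean 1.12 ± 0.0341, SD, n = 4), above 1 in 4 of 4. The score also ranked the peaks of the optimal set, so these values describe the set and were not tested. The weaker peaks of the pooled list, those ranked below its 8282 strongest, lay at 4.20 per 10 kb inside the cluster spans and at 1.55 per 10 kb elsewhere. Whether any of these weaker peaks also belonged to the optimal set was not checked.

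Clusters were found again in the replicates, although the replicates are not independent of the optimal set, whose peaks were called on their pooled reads. A region counted as met by a replicate when at least 1 bp was shared with one of that replicate's 8282 strongest peaks. Replicates 1 to 4 met 85.8%, 86.6%, 87.1% and 85.4% of members and 79.9%, 81.3%, 82.1% and 84.4% of other regions. The means were 86.2% ± 0.775 and 81.9% ± 1.87 (SD, n = 4). Members were met more often in 4 of 4 replicates, by 4.30 points ± 2.25 (SD, n = 4; p = 0.125, exact two-sided sign-flip permutation test, the smallest possible), and by the least, 0.966 points, in replicate 4. The gap was 2.92 points with an overlap of at least 50% of the region, 7.28 with fewer replicate peaks and 1.12 with all replicate peaks. A single replicate peak can meet several neighbouring members, which the rule places close together, and the part of this in the gap was not tested. All 4 replicates met 66.1% of members and 57.8% of other regions. Within promoters alone the mean shares met were 84.5% ± 3.11 of members and 83.2% ± 4.55 of other regions (SD, n = 4). There, members were met less often in replicates 1 and 4 and more often in replicates 2 and 3. Away from promoters the means were 86.8% ± 1.59 and 81.1% ± 2.91 (SD, n = 4). For regions in chains of 4 the mean was 83.8%.

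Under the same chaining rule, the lists of replicates 1 to 4 held 276, 280, 278 and 249 clusters of their own, with 23.7%, 24.5%, 23.6% and 20.8% of their regions in them. Of the optimal-set members, 69.3%, 70.7%, 69.7% and 65.03% fell in a cluster of the respective replicate (mean 68.7% ± 2.498, SD, n = 4), and of the other regions 3.41% ± 0.528 did. Other regions lie outside dense chains by the rule itself, so their low share follows in part from the rule, and the contrast was not tested. In all 4 replicates 789 members (38.0%) fell in such clusters, and 109 members did so in none. At least 3 members were found again in every replicate for 142 clusters, and 17 clusters were found in no replicate. The emc and hng3 cluster had 30, 32, 30 and 30 of its 35 regions in the replicates' own clusters, heca 19, 24, 20 and 21 of 24, and Mnt 15, 15, 14 and 15 of 16. Others depended on the replicate. The larp cluster had 0, 7, 0 and 9 of its 9 regions in own clusters, CG43658 had 6, 11, 6 and 0 of 12, Eip78C had 5, 0, 5 and 5 of 6, and CG31145 had 6, 6, 0 and 5 of 6. In the CG43658 and larp clusters, 8 of 12 and 4 of 9 regions were met by all 4 replicates.

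Few genes held cluster summits, and those that did were long. Of 13968 protein-coding genes, 319 (2.28%) had a member summit between their start and end, and 2077 (14.9%) had any summit of the optimal set. At least 5 member summits lay in 152 genes and at least 10 in 25. Genes with a member summit had a median length of 17.8 kb, genes with other summits only 10.2 kb, and all protein-coding genes 2.16 kb. By length class, the share of genes with a member summit rose from 0.353% of genes under 2 kb to 7.78% at 10 to 20 kb, 12.9% at 20 to 50 kb and 18.2% at 50 kb and over. Summits of any kind also lay more often in long genes, in 155 of 6517 genes under 2 kb and 213 of 307 at 50 kb and over. Among genes with any summit, 14.8%, 9.14%, 9.34%, 16.4%, 20.2% and 26.3% held a member summit, from the shortest to the longest class. Because the share of all genes with a member summit moved with length, each gene list below is set beside the share among all genes of the same length classes, and the part of length in the result was not tested. Overlapping genes share summits, and a summit inside a gene does not show that the gene is the target.

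The genes with most member summits were sbb, a transcriptional corepressor gene with 22 summits in 2 clusters over 79.1 kb, and Tet, which encodes an oxidase of methylated nucleotides and had 21 summits in 3 clusters over 93.0 kb. They were followed by ush with 18 in 2 clusters, the BMP pathway zinc finger gene shn with 17 in 2 clusters, Mnt with 16 in 1 cluster, and brat, a translational repressor gene, with 13 in 2 clusters. The Tousled-like kinase gene Tlk, the ZO-1 gene pyd, tara and tou had 12 each, and the cell cycle activator gene E2f1 had 11. All summits of the optimal set inside ush, shn, Mnt, brat, tara and tou were members, 18, 17, 16, 13, 12 and 12 in turn.

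The lists of signalling genes had some of the highest shares of genes with a cluster summit, which are given beside the 2.28% of all genes without a test of the difference. These lists also held summits of any kind more often than all genes, and the part of this in their cluster shares was not tested. Of the Notch and EGFR signalling list, 17 of 24 genes (70.8%) held any summit of the optimal set, beside 14.9% of all genes. A member summit lay in 8 of the 24 (33.3%), beside 9.18% of all genes of the same length classes. They included the ETS proteins at the end of the EGFR pathway, the repressor aop with 10 member summits and the activator pnt with 7, the receptor gene Egfr with 5, the ligand gene spi with 4 and the secreted inhibitor gene aos with 3. In the Notch branch they included the nuclear coactivator gene mam with 5, the ligand gene Ser with 4 and fng, which encodes a glycosyltransferase that modifies Notch, with 3. The strongest member in aop ranked 571, 318, 338 and 358 in the replicates, and that in spi ranked 283, 99, 280 and 173. The strongest member in Egfr was weaker, at 6021, 3261, 3256 and 6541, and only 1 of its 5 members was met by every replicate.

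In the list of Wnt, Hedgehog and BMP signalling, 17 of 31 genes (54.8%) held any summit, and 8 (25.8%, beside 7.31%) held member summits. Receptors were among them, with the Wnt receptor genes fz2 (9 summits) and fz (5), their coreceptor gene arr (9) and the BMP receptor gene tkv (6). Inside the nucleus or the cell came shn (17), the inhibitory Smad gene Dad (5) and the Wnt inhibitor gene nkd (5), and among ligands Wnt2 (5). The strongest shn member ranked 99, 118, 80 and 86 in the replicates, and the strongest arr member 696, 448, 465 and 369. In the list of JAK-STAT and Hippo signalling, 11 of 23 genes (47.8%) held any summit, and 6 (26.1%, beside 7.21%) held member summits. These were the protocadherin gene ds (11), the Hippo scaffold gene kibra (8), the kinase gene wts (5), the caspase inhibitor gene Diap1 (5) and the JAK-STAT inhibitors Socs36E (5) and Ptp61F (5). All 5 members in Socs36E were met by all 4 replicates.

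Genes of the cytoskeleton, junctions and disc eversion, the process that turns imaginal discs inside out in the prepupa, held member summits in 10 of 34 cases (29.4%, beside 7.65%). Any summit lay in 23 of the 34 (67.6%). The examples with most member summits were the junction scaffold gene pyd (12), msn (10), the Jun kinase phosphatase gene puc (6) and the polarity scaffold gene baz (5). The strongest member of baz was in an exon and ranked 46, 97, 46 and 71 in the replicates, but only 1 of its 5 members was met by all 4. In the circadian list, vri (10), the activator bZIP gene Pdp1 (4) and the casein kinase gene dco (3) held member summits, 3 of 12 genes (25%, beside 6.39%). Any summit lay in 5 of the 12.

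Ecdysone response genes held member summits in 5 of 25 cases (20%), beside 11.2% of all genes of the same length classes, while 20 of the 25 held some summit of the optimal set. The members were vri with 10, Eip78C with 7 in 2 clusters, the nuclear receptor genes Hr4 with 6 and Hr3 with 5, and tai, the coactivator of the ecdysone receptor, with 5. The strongest Hr4 member lay in an intron and ranked 127, 110, 67 and 69, and the strongest Hr3 member, also intronic, ranked 863, 677, 906 and 728. Among all 21 nuclear receptor genes, the same Eip78C, Hr4 and Hr3 were the 3 with a member summit (14.3%, beside 8.59%), and 13 had any summit.

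Other regulators varied. The bHLH and bZIP list had 6 of 35 genes (17.1%, beside 6.74%), led by Mnt (16), vri (10), crp (9) and the Fos gene kay (6). The zinc finger list had 5 of 37 (13.5%, beside 7.66%), led by ush (18), psq (10), bowl (5) and ttk (2). The RNA-binding list had 4 of 27 (14.8%, beside 11.3%), with brat (13), larp (6), pum (6) and shep (5). The strongest pum member ranked 51, 36, 47 and 62 in the replicates. Neural adhesion and guidance genes had 6 of 30 (20%, beside 13.95%), led by Ptp10D (7), kirre (6), Fas3 (5) and Ten-a (5). Insulin and growth genes had 2 of 20 (10%, beside 5.40%), foxo with 2 summits and Thor with 1. Cell death and autophagy genes had 2 of 25 (8%, beside 2.38%), Diap1 with 5 and Atg1 with 4. These lists too held summits of any kind more often than the 14.9% of all genes. Any summit lay in 57.1% of the bHLH and bZIP list, 48.6% of the zinc finger list and 81.5% of the RNA-binding list. It lay in 63.3% of the neural list, 45% of the insulin list and 28% of the cell death list. The part of this in their member shares was not tested.

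No homeodomain gene of the 47 listed held a member summit, beside 6.55% of genes of the same length classes. A count of 0 allows a share of up to 6.38% by the limit of 3 counts and up to 7.55% by the exact 95% binomial interval. The first limit is just below 6.55% and the second above it, so these data do not settle whether the list differs from genes of the same length. Of the 47 genes, 16 held some summit of the optimal set, and 3 held a summit of a chain of at least 4 regions. Of 26 lipid and sugar metabolism genes, 1 held a member summit (3.85%, beside 3.44%), which was Pgk, a glycolytic enzyme gene, with 4 summits. In the same list 17 genes held any summit, and 4 held a summit of a chain of at least 4 regions. Of 85 cytoplasmic ribosomal protein genes, 4 held member summits (4.71%, beside 0.458%), each with 1 summit. Any summit of the optimal set lay in 26 of the 85 (30.6%), beside 14.9% of all genes. The part of this in the member share was not tested. Of 48 proteasome genes, 1 held a member summit (2.08%, beside 0.422%), which was Rpn9, and 2 held any summit. No member summit lay in 16 heat shock genes (beside 0.939%), 12 salivary glue genes (beside 0.399%), 179 chemosensory receptor genes (beside 0.704%) or 119 cuticle genes (beside 0.669%), which allows shares of up to 18.8%, 25%, 1.68% and 2.52% by the limit of 3 counts. None of the salivary glue or chemosensory receptor genes held any summit of the optimal set, whereas 7 heat shock and 4 cuticle genes did. With chains of at least 4 regions, 3 heat shock genes held a summit.

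The counts of several lists changed when a gene was counted by a member summit within 1 kb of its TSS in place of one between its start and end. The count went from 8 to 5 for Notch and EGFR signalling, from 8 to 5 for Wnt, Hedgehog and BMP signalling, from 6 to 3 for JAK-STAT and Hippo signalling and from 5 to 2 for ecdysone response genes. It went from 3 to 1 for nuclear receptors, from 6 to 1 for neural adhesion and guidance, from 1 to 2 for lipid and sugar metabolism and from 4 to 7 for cytoplasmic ribosomal proteins.

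**Figure D4:**
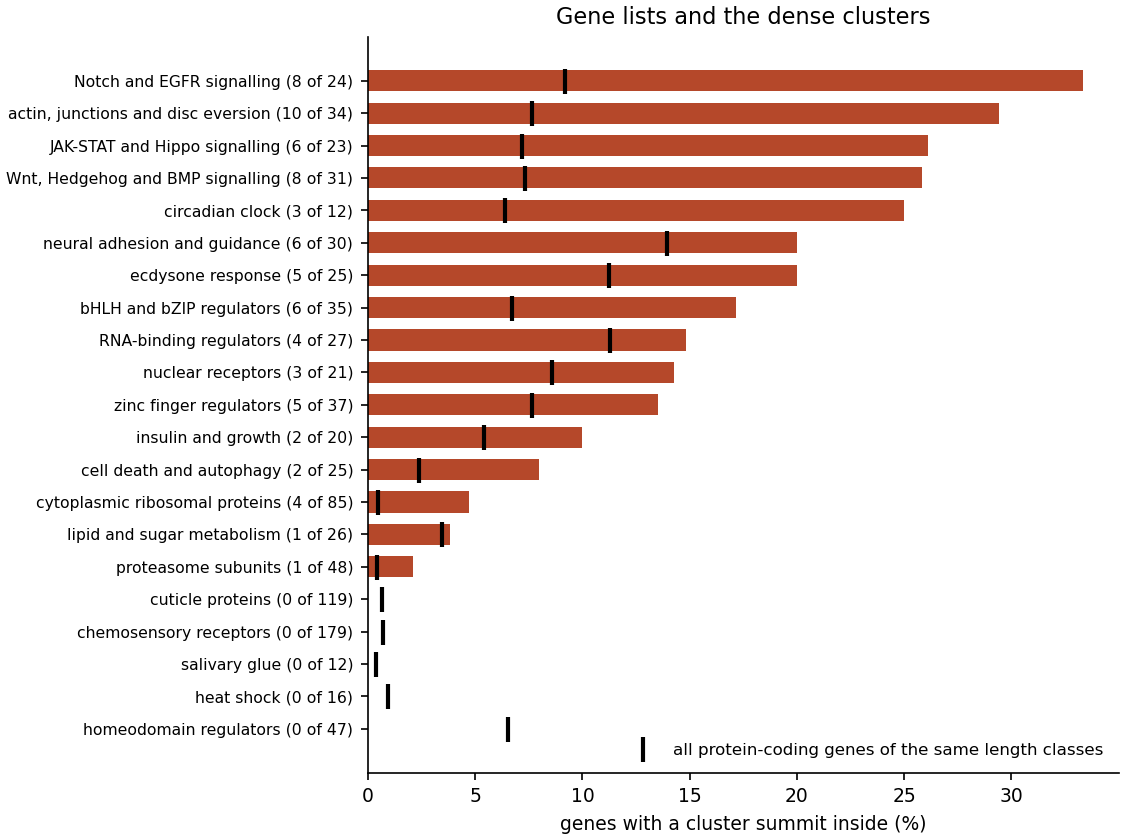
Share of genes (horizontal axis, %) with a cluster summit between start and end, for each gene list (rows, with counts). Black ticks give the share among all protein-coding genes of the same length classes; Notch and EGFR signalling had the highest share, 33.3% beside 9.18%, and 5 lists had none.

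The DNA under cluster summits was as A/T-rich as that under other summits. In 200 bp centred on the summit the median GC content was 34.0% for members (middle 50% 30.5% to 38.0%) and 34.5% for other regions. In windows of the same length centred 500 bp to each side, their mean had a median of 43.25% for members and 43.75% for others. The summit was lower than its surroundings in 82.7% of members and 81.2% of other regions. The longest run of A and T letters had a median of 12 bases at member summits and 9 bases in windows 500 bp to the right. In the replicates' own clusters the median summit GC ranged from 34% to 35%, and outside them likewise from 34% to 35%. For the single sequences printed above, the surroundings were not measured. In 200 bp centred on the same summits, GC content was 48% upstream of tara and 42% at ush. At the other printed summits it ran from 29.5% at aop and CG31668 to 39.5% at emc and hng3. Of the members, 30.8% had the commonest width of the list, 430 bp, with a median signal of 128, and their summit GC had a median of 34.5%. The other members had a median signal of 292 and a median summit GC of 33.5%.

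**Figure D5:**
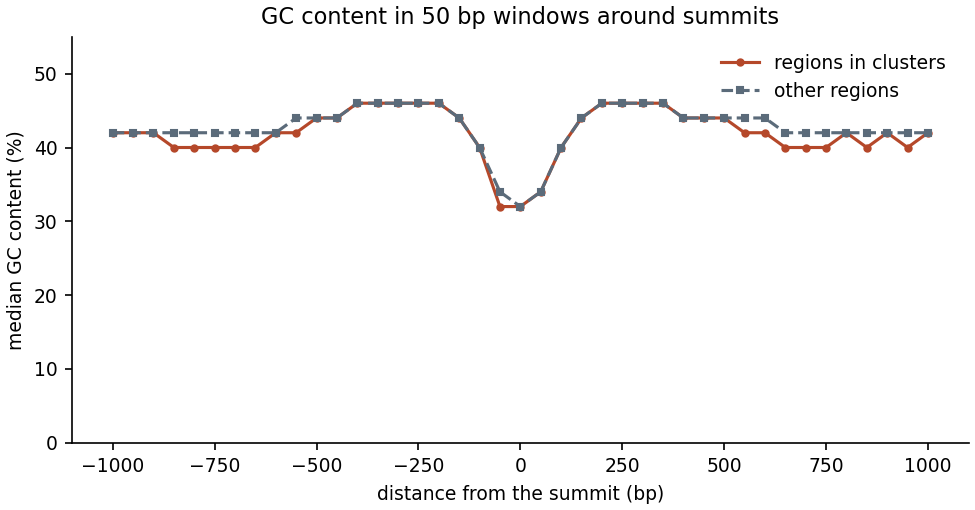
Median GC content (vertical axis, %) in 50 bp windows against distance from the summit (horizontal axis, bp) for regions in clusters (red) and other regions (grey, dashed). Both lines fall to 32.0% at the summit and stand at 46.0% at 200 bp on either side.

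Motifs were counted in the 200 bp centred on each summit, and the shares below hold for that length. The half-site AGGTCA was in 4.00% of member windows and 4.05% of other windows, and in 4.14% of member windows placed 500 bp to the right of the summit. The extended element, GGTCA preceded by AANTN, was in 0.674% of members and 0.879% of others. No window held a pair of AGGTCA copies in the same direction 2 bases apart, or an inverted pair 1 base apart. The AP-1 motif TGANTCA, bound by Fos and Jun, was in 5.92% of members and 4.76% of others, and was higher in the clusters of 4 of 4 replicates (5.68% ± 0.396 and 4.97% ± 0.179, SD, n = 4; exact sign-flip permutation p = 0.125). In the windows to the right the motif stood at 5.49% for members and 4.20% for others, so the gap was not limited to summits. In chains of 4 the AP-1 motif was in 3.01% of windows and in clusters of 10 or more in 5.47%. The heat shock half-site pair GAANNTTC was also higher in the clusters of 4 of 4 replicates (6.25% ± 0.477 and 5.78% ± 0.408, SD, n = 4; exact permutation p = 0.125), as was the Zelda motif CAGGTAG (0.971% ± 0.135 and 0.733% ± 0.0259, SD, n = 4; exact permutation p = 0.125). In the optimal set GAANNTTC was in 6.41% of members and 5.79% of others, and in 4.53% of member windows to the right. It was in 6.15% of windows in chains of 4 and in 5.47% in clusters of 10 or more. Within promoters alone GAANNTTC was lower in members, 5.07% beside 5.98%, and away from promoters higher, 6.85% beside 5.66%. The Zelda motif was in 0.771% of members of the optimal set (16 windows) and 0.724% of others, close to each other, and in 1.25% of member windows to the right.

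The promoter elements DRE and Motif 1 were rarer in clusters, whose regions also lay at promoters less often. The DRE, TATCGATA, was in 0.771% of members and 1.67% of others, lower in 4 of 4 replicates (0.685% ± 0.179 and 1.95% ± 0.328, SD, n = 4; exact permutation p = 0.125). Within promoters alone it was in 2.34% of member windows and 3.58% of other windows. Core promoter Motif 1, GGTCACACT, was in 0.482% of members (10 windows) and 0.930% of others, and within promoters alone in 1.17% and 1.68%. The GATA motif AGATAAG was in 2.89% of members and 3.27% of others and was lower in 4 of 4 replicates (2.91% ± 0.190 and 3.15% ± 0.183, SD, n = 4). GAGAG was in 21.1% of members and 23% of others, with the replicates split, and below the 27.6% of member windows to the right. TATAAAA was in 15.2% of members and 16.8% of others, and TTANGTAA, of the type that vri binds, in 5.97% and 5.81%. For both, member windows to the right had less, 8.72% and 2.17%, and both are A/T-rich like the summits. Within promoters alone, TATAAAA was in 17.7% of member windows and 16.2% of other windows. A match is a run of letters and not a bound site. In all, 17 motifs were counted, and p-values for them were not adjusted because none could fall below 0.125.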

How the data were processed

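Peak lists on dm6 were used, and lists on dm3 were not. Per the file headers, the authors called each replicate's list on its own alignment with a control alignment, called a further list on the 4 alignments pooled, and derived the optimal set by irreproducible discovery rate from the pooled list and those of replicates 2, 3 and 4. The sources used here do not give the aligner, the peak caller or the threshold. Column 7 of the deposited lists is a signal score whose scale the authors do not state, so it served for ranking and description inside a single list. Each replicate list holds 30000 peaks including background, so the 8282 strongest, as many as in the optimal set, were used.

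Chains, classes and motif counts were computed in Python 3.11.15 with pandas 2.3.3, numpy 2.4.6 and scipy 1.17.1, and the functions were tested on simulated data. Genes came from Ensembl release 115 and bases from the RefSeq dm6 genome. Classes were given in the order promoter, exon, intron, intergenic. A list's value beside it weights the share of all genes in 6 length classes by the list's own genes. Members and lists were chosen with earlier results of these data known. The 10 clusters with most regions, the 10 with the strongest peaks and up to 4 genes per list with most member summits are named; further genes (tara, Tlk, tou, E2f1, sbb, Tet and list members beyond the fourth) were named after their values were seen. CrebA, pdm3, klar and bun were taken off the zinc finger list as misplaced after values were seen; klar held 1 member summit. Alternatives changed 1 setting at a time.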

Additional observations from a re-analysis of the deposited data

Results flagged for a closer look

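For 67 values with 4 replicates, the gap from the highest or lowest replicate to its neighbour was compared with the range of the 4. In 12 cases a replicate stood apart, and chance alone would set apart about 1 in 20 such groups. Several of these are counts of small whole numbers in which 1 replicate differs by 1 or 2 from 3 that are equal.

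In the Mnt cluster, replicate 3 met 14 regions and had 14 in its own clusters, where the others had 15, and it ranked the strongest peak higher, at 237, than the others at 346 to 362. In the cluster between Ids and sty, replicate 2 met 11 regions and had 11 in its own clusters, where the others had 12. In the cluster at emc and hng3, replicate 2 had 32 regions in its own clusters and the others 30. At osa, replicate 1 met 4 regions and had 4 in its own clusters, where the others had 5. At ph-p, replicate 1 ranked the strongest peak at 64, and the others ranked it at 16 to 24. At Eip78C, replicate 2 met 4 regions where the others met 5, and it had 0 in its own clusters where the others had 5. At CG31145, replicate 3 had 0 regions in its own clusters where the others had 5 or 6. These last 2 cases lie at the threshold of 5 regions, below which a chain is no cluster.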

How the results depend on the processing

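Of 176 values recomputed under an alternative, 109 kept within the limits set for them and 67 moved; they are counts, shares and ratios, and most cannot change sign. The number of member regions, 2076, depended on the rule. It was 638 with a distance of 2.5 kb and 4004 with 10 kb, 622 with only peaks met by all 4 replicates, 345 with the stronger 50% of peaks, and 729 to 814 with only peaks met by every replicate but one. The promoter share of members, 24.7%, was 17.1% within 500 bp, 38.6% within 2 kb, 32.2% with TSSs of all genes, 21.6% with 2.5 kb, 28.05% with 10 kb and 22.2% for peaks met by all replicates, and the difference from other regions stayed between -12.4 and -23.3 points. The share of members met by a replicate, 86.2%, was 79.0% with an overlap of at least 50% of the region, 54.3% with fewer replicate peaks, 99.3% with all replicate peaks, and 85.9% to 86.5% without each replicate. The share in a replicate's own clusters, 68.7%, was 80.3% with 10 kb, 77.7% with at least 4 regions, and 68.0% to 69.9% without each replicate. The share of a replicate's own regions in clusters, 23.1%, was 8.71% with fewer peaks, and 22.7% to 23.9% without each replicate. Genes with a member summit numbered 319, and 527 with 2 kb upstream included, when ribosomal protein genes went from 4 to 7 and lipid and sugar genes from 1 to 2. Within 1 kb of a TSS the counts for 8 gene lists moved, as given beside the lists, and with at least 4 regions that for RNA-binding regulators went from 4 to 7, lipid and sugar metabolism from 1 to 4, and homeodomain and heat shock genes from 0 to 3. Of 51 motif shares, 23 stayed; in windows of 100 and 400 bp GAGAG was in 9.20% and 46.4% of members, against 21.1%, and the AP-1 motif in 2.75% and 11.03%, against 5.92%. The signal ratio stayed between 1.083 and 1.13. No paired analysis was possible because 1 group leaves no groups for replicate numbers to pair; members and other regions were compared within each replicate.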
